A study of Mus musculus with 16 samples.

Results

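Collagen chain genes encode the polypeptides that wind in threes into collagen molecules, the main structural proteins of the matrix around fat cells. Genes whose symbol is Col, a number, a and a number were taken from the table, which gave 44 genes of 54532 gene IDs. They were split into 11 fibrillar, 8 basement membrane and 25 other collagens. Of the 44 genes, 26 had a mean of at least 1 FPKM over all 16 libraries and were tested, among 13271 such genes in all. These were 8 fibrillar, 6 basement membrane and 12 other collagens. FPKM is the number of fragments of a gene scaled by its length and by the depth of the library. Col23a1 stood just inside the limit with a mean of 1.39 FPKM and Col20a1 just outside with 0.97.

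The tissue was epididymal fat, a visceral white depot, from obese C57BL/6 males kept on a high-fat diet for 20 weeks. There were 4 groups of 4 libraries. The vehicle and tubastatin groups (tubastatin A-HCl, an inhibitor of the cytoplasmic deacetylase HDAC6) were labelled 25 weeks old. The AdKO group (adipose tissue specific HDAC6 knockout) and its AdCre group (adiponectin-Cre controls) were labelled 28 weeks old and vehicle treated. Adiponectin-Cre acts in adipocytes, so fibroblasts, vessels and immune cells of the AdKO pad are outside its reach. The labels give all 8 vehicle and tubastatin mice a global HDAC6 knockout, while the design line of the series names no knockout for them and an age of about 28 weeks, so their genotype and age are uncertain. Separate animals per library are nowhere stated, and p-values therefore cover the spread between libraries, which may be technical. The dose and the length of treatment were not given in the sources used here.

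Recovered depth was 18234386 to 24776803 reads per library. Hdac6 itself stood at 1.41 to 1.78 FPKM in vehicle, 1.44 to 1.70 in tubastatin, 3.64 to 4.74 in AdCre and 2.66 to 4.11 in AdKO. AdCre and AdKO overlapped, and a sum over the whole gene cannot tell an excised exon. Every vehicle and tubastatin library lay below every AdCre and AdKO library. Labelled genotype, labelled age and cohort differ together between these groups, and the reason for the lower Hdac6 was not tested. All 8 adipocyte markers were read in every group, with a summed level of 2969 to 6362 FPKM per library. Epididymal epithelium markers summed to at most 1.91 FPKM in 14 libraries but stood higher in AdCre replicate 3 (Epcam 22.8, Adam7 5.57 FPKM) and AdCre replicate 2 (Gpx5 5.97, Adam7 1.91 FPKM). Tubastatin replicate 1 stood apart from the other tubastatin libraries in the collagens. Some collagen results of the tubastatin comparison are also given without it.

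In fat, fibrillar collagens of types I, III and V form the load-bearing fibres between adipocytes and are made mainly by fibroblasts and their progenitors. Type IV collagen forms the sheet-like network of the basement membrane that wraps each adipocyte and vessel, and adipocytes make much of it themselves. Type VI collagen forms beaded filaments that link both, and its alpha 3 chain is the source of the cleaved peptide endotrophin. In bulk tissue, fewer cells of a type and less RNA per cell cannot be told apart.

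Promoter sequences are shown for 4 fibrillar genes whose values are given below: Col3a1 and Col24a1, then Col5a1 and Col5a3, which encode chains of the same collagen type. They are RefSeq windows of GRCm38.p6 that hold the 250 bases before the gene's start, read 5′ to 3′ on the gene's own strand. Capitals mark 3 motifs, searched on both strands. The TATA box was searched by the letters TATAAA. The CCAAT box was searched by its name. The GC box was searched by the letters GGGCGG. A run of CCGCCC is thus a GC box on the other strand. None of these windows holds an annotated exon.
Col3a1, chr1:45311288-45311537, plus strand: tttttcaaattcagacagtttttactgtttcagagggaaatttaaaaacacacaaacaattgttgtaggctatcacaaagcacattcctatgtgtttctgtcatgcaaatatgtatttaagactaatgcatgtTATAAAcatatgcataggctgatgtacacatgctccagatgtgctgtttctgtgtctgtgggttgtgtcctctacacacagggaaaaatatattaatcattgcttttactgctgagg
Col24a1, chr3:145292222-145292471, plus strand: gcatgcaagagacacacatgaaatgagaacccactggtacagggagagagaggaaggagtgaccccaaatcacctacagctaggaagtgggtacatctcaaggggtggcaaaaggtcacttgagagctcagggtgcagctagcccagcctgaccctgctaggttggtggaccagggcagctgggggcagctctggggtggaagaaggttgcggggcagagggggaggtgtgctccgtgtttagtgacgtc
Col5a1, chr2:27886175-27886424, plus strand: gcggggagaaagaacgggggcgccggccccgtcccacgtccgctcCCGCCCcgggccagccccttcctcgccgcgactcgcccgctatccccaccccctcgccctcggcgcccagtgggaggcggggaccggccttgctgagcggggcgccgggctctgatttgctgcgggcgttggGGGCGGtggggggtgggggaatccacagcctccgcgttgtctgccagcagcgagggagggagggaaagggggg
Col5a3, chr9:20815068-20815317, minus strand: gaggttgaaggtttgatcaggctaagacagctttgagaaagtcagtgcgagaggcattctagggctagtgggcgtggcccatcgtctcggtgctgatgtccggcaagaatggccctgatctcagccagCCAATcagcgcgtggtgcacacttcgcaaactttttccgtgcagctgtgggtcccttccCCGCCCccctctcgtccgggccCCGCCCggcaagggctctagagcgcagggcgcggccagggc
The Col3a1 window held a TATA box 117 bases before the start and no GC box, and its GC content was 35.2%. The Col24a1 window held none of the 3 motifs at 58.0% GC. The Col5a1 window held 2 GC boxes, 205 and 73 bases before the start, at 76.4% GC. The Col5a3 window held a CCAAT box 122 bases and GC boxes 63 and 41 bases before the start, at 62.8% GC. Of the 26 tested genes, 22 had a window, of which 7 held a CCAAT box, 1 a TATA box and 15 a GC box. Among 27025 genes with such a window the shares were 37.5%, 14.3% and 35.4%. A match describes letters in the window, not a site in use.

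By level per length, the tested collagens ran from Col3a1 down to Col23a1. Of the major fibril chains, Col3a1 had a mean over the 16 libraries of 357 FPKM, Col1a1 of 250 and Col1a2 of 163. Of the basement membrane chains, Col4a1 had 232, Col4a2 193, Col15a1 108 and Col18a1 43.7. Of type VI, Col6a1 had 224, Col6a2 112, Col6a5 48.0 and Col6a3 43.1. The type V chains Col5a3, Col5a1 and Col5a2 stood at 66.8, 55.9 and 41.2 FPKM. The remaining tested genes had means of 23.2 FPKM or less. The other 18 of the 44 genes, below the limit, included the cartilage collagens Col2a1, Col11a1 and Col9a1, of which at most 5, 22 and 1 reads were recovered in any library.

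The first comparison asks how the pad differs after tubastatin A. Col1a1, Col1a2 and Col3a1, the major fibril chains, stood on average at 2.87, 2.18 and 1.99 times the vehicle mean, and in each of them tubastatin replicate 1 lay level with vehicle libraries while the other 3 lay above all of them. None of these differences passed the test. Col4a1 and Col4a2, the major basement membrane chains, stood at 0.931 and 0.870 times the vehicle mean. No collagen passed at an adjusted p of 0.05 by limma over all genes, and percent called was 0.0 over the 13271 genes. At an unadjusted p under 0.05 there were 3 collagens of 26 (Col5a2, Col24a1 and Col1a2), against 12.0% of all genes. By limma voom on recovered reads 0 collagens were called and 6 were under 0.05, where 1556 of all 12622 genes were. The fitted log2 fold change was positive for 20 of 26 collagens, against 45.4% of all genes, with a median of 0.27 against -0.01 for all genes. By class it was positive for 8 of 8 fibrillar collagens (median 0.84), 3 of 6 basement membrane collagens (median -0.01, and 5 of 6 with TPM) and 9 of 12 others (median 0.27). With TPM it was positive for 8645 of all 13271 genes, with a median of 0.06. Of the 26 collagens, 0 were free of overlap between the groups, against 3.53% of all genes without overlap and higher and 3.62% without overlap and lower.

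Col1a1, the alpha 1 chain that supplies 2 of the 3 strands of type I collagen (ENSMUSG00000001506, chromosome 11, 94936224 to 94953042 in GRCm38), stood at 109, 769, 531 and 368 FPKM in tubastatin replicates 1 to 4. In vehicle it stood at 190, 140, 180 and 109 FPKM. Replicates 2, 3 and 4 of tubastatin lay above every vehicle library and replicate 1 at the lowest. The mean was 444 ± 278 FPKM against 155 ± 37.4 (SD, n = 4 each). The fitted log2 fold change was 1.24 (SE 0.54, adjusted p = 0.418).

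Col1a2, the partner chain of type I (ENSMUSG00000029661, chromosome 6, 4504814 to 4541544), stood at 94.97, 398, 297 and 241 FPKM in tubastatin and 141, 113, 129 and 88.3 in vehicle. The same 3 tubastatin libraries were high. Its log2 fold change was 0.97 (SE 0.40, adjusted p = 0.402). Col3a1, the only chain of type III collagen (ENSMUSG00000026043, chromosome 1, 45311538 to 45349706), stood at 180, 619, 665 and 442 FPKM in tubastatin and 304, 230, 256 and 166 in vehicle. The order of the libraries differed from that of Col1a1, with replicate 3 in front of replicate 2. The log2 fold change of Col3a1 was 0.86 (SE 0.40, adjusted p = 0.436).

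**Figure D1:**
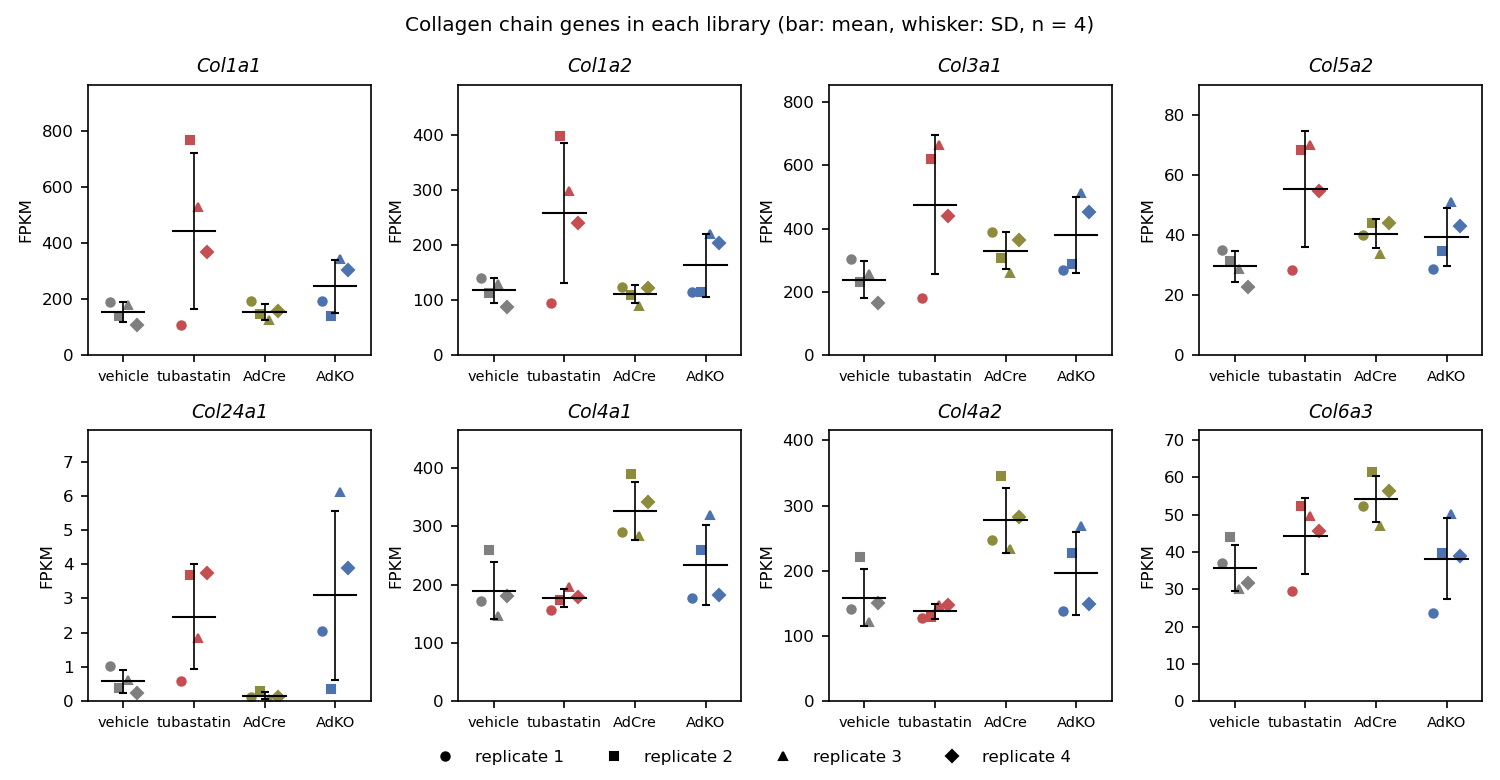
FPKM of 8 collagen genes in each library, by group, with a marker per replicate, the mean as a bar and the SD as a whisker (n = 4). Tubastatin replicate 1 sits with the vehicle libraries for Col1a1 (109 FPKM against 368 to 769 in the other tubastatin libraries), and Col4a1 sits between 157 and 195 FPKM in all 4 tubastatin libraries.

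The type V chains, which sit inside type I fibrils and limit their width, did not vary alike. Col5a2 (ENSMUSG00000026042, chromosome 1, 45374321 to 45503282) stood at 28.6, 68.5, 70.03 and 54.6 FPKM in tubastatin and 35.2, 31.6, 28.8 and 22.8 in vehicle, a fitted log2 fold change of 0.82 (SE 0.28, adjusted p = 0.356). It had the lowest p of the 26 collagens, and replicate 1 of tubastatin lay among the vehicle values. Col5a1 stood at 31.4, 80.3, 75.3 and 59.2 FPKM against 43.7, 50.6, 37.8 and 37.6, a fitted log2 fold change of 0.45 (SE 0.28, adjusted p = 0.519). Col5a3 stood at 36.5, 49.2, 56.0 and 50.8 FPKM against 43.7, 67.6, 39.1 and 35.4, and its fitted value was 0.08 (SE 0.21, adjusted p = 0.890), with vehicle replicate 2 the highest of the 8. Col5a1 shares 212 exon bases with genes on the other strand, and use of strand in the counting was not given in the sources used here.

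Col24a1 and Col27a1 are fibrillar chains of low abundance in fat. Col24a1 (ENSMUSG00000028197, chromosome 3, 145292472 to 145552011) stood at 0.59, 3.69, 1.86 and 3.75 FPKM in tubastatin and 1.04, 0.39, 0.63 and 0.25 in vehicle, from 40 to 657 recovered reads. Its log2 fold change was 1.03 (SE 0.35, adjusted p = 0.357), on a scale that understates changes of genes this low. The vehicle and AdCre means of Col24a1, 0.577 and 0.158 FPKM, lay below the limit of 1. It was thus tested only through the groups where it was high. Col27a1 stood at 1.42 ± 0.335 FPKM in tubastatin and 1.34 ± 0.257 in vehicle (SD, n = 4 each), a fitted 0.04.

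In tubastatin, 13 of the 26 collagens had exactly 3 of 4 libraries above every vehicle library, against 7.40% of all genes, and 0 had exactly 3 below every vehicle library, against 8.16%. In all 13 the exception was replicate 1, a pattern found in 3.65% of all genes. The 13 were Col1a1, Col1a2, Col3a1, Col5a1, Col5a2, Col24a1, Col27a1, Col4a5, Col6a1, Col6a3, Col8a1, Col12a1 and Col14a1. Replicate 1 was the lowest of the 8 libraries for 9 collagens and the highest for 0, and replicate 2 was the highest for 10. This pattern was looked for after the values had been seen. Tubastatin replicate 1 also had the greatest depth (24776803 reads), and its part in the result was not tested.

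With tubastatin replicate 1 left out, 15 of 26 collagens had an unadjusted p under 0.05, where 1811 of all 13271 genes did, and again no collagen was called. The median log2 fold change became 0.43 over the 26 and 1.19 over the 8 fibrillar collagens. Col1a1 was then at 1.81 (SE 0.28), Col1a2 at 1.39 (SE 0.21), Col3a1 at 1.27 (SE 0.23), Col5a2 at 1.10 (SE 0.16) and Col24a1 at 1.37 (SE 0.24), with adjusted p-values of 0.0896 to 0.0989. The library was singled out because its collagen values were low, so these values describe the other 3 libraries and are no test of the drug. With vehicle replicate 4 left out, the fibrillar collagens with a positive fitted value numbered 6 of 8.

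**Figure D2:**
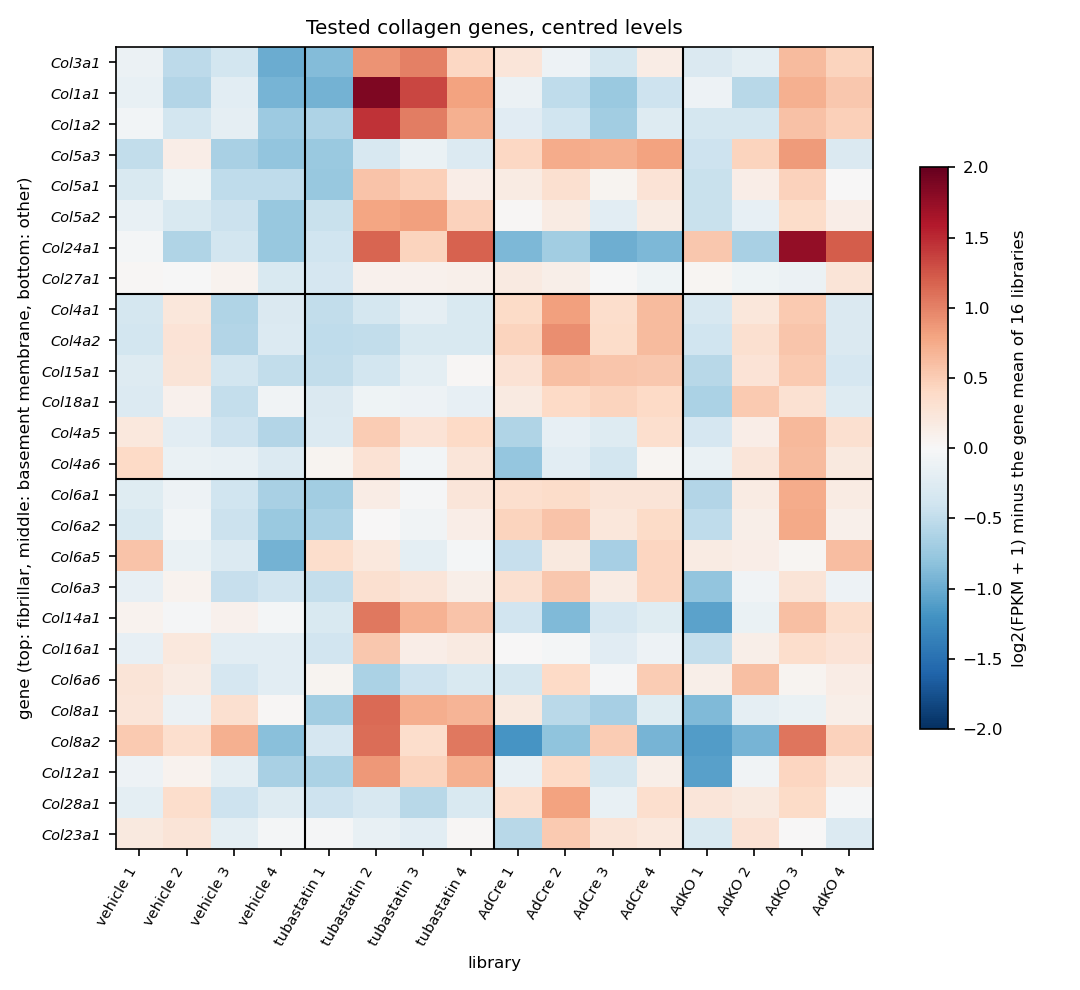
Level of each of the 26 tested collagens in each library, as log2(FPKM + 1) minus the gene's mean over the 16 libraries, with groups set apart by vertical lines and the 3 classes by horizontal lines. Tubastatin replicates 2, 3 and 4 are red for most fibrillar genes while replicate 1 is blue, and AdKO replicate 1 is blue for most genes, being the lowest of its 8 libraries for 14 of 26 collagens.

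Among basement membrane chains, Col4a1 (ENSMUSG00000031502, chromosome 8, 11198423 to 11312826) stood at 157, 174, 195 and 179 FPKM in tubastatin and 172, 259, 146 and 180 in vehicle. Its partner Col4a2 (ENSMUSG00000031503, chromosome 8, 11312805 to 11449287), which joins it in the common trimer of type IV, stood at 127, 129, 148 and 148 FPKM against 142, 221, 121 and 151. Vehicle replicate 2 was the highest for both and replicate 3 the lowest, so the tubastatin libraries lay inside the vehicle range. The log2 fold changes were -0.07 (SE 0.17, 95% interval -0.45 to 0.31) for Col4a1 and -0.17 (SE 0.17, -0.56 to 0.23) for Col4a2, with adjusted p-values of 0.869 and 0.693. The sign for Col4a1 turned with TPM and both signs turned without vehicle replicate 2. Both genes start head to head and share 22 exon bases on opposite strands.

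The less abundant type IV chains had positive fitted values. Col4a5, which with Col4a6 forms a distinct trimer of some basement membranes, stood at 5.26, 9.81, 8.15 and 8.99 FPKM in tubastatin and 7.77, 5.55, 4.69 and 4.08 in vehicle (log2 fold change 0.47, SE 0.21, adjusted p = 0.420). Col4a6 stood at 2.21, 2.77, 1.98 and 2.66 FPKM against 3.07, 1.81, 1.80 and 1.55 (0.17, SE 0.15, adjusted p = 0.649). Col15a1 and Col18a1, multiplexins that carry restin and endostatin, stood at 87.3 ± 13.7 against 91.3 ± 22.5 and 37.9 ± 2.43 against 37.7 ± 6.43 FPKM (SD, n = 4 each). The fitted value of Col15a1, -0.05, turned to 0.03 with TPM.

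Of the other collagens, the 3 chains of the common type VI heterotrimer had positive fitted values. Col6a1 (ENSMUSG00000001119, chromosome 10, 76708792 to 76726168) stood at 133, 241, 214 and 256 FPKM in tubastatin and 183, 202, 164 and 137 in vehicle. Col6a2 (ENSMUSG00000020241, chromosome 10, 76595762 to 76623630) stood at 68.9, 109, 103 and 119 FPKM against 87.4, 104, 80.0 and 64.2. Col6a3 (ENSMUSG00000048126, chromosome 1, 90765923 to 90843971) stood at 29.6, 52.2, 49.6 and 45.6 FPKM against 37.2, 44.0, 30.1 and 31.8. All 3 overlapped between the groups, with tubastatin replicate 1 at or near the bottom. Their log2 fold changes were 0.27, 0.24 and 0.28 (SE 0.21, 0.19 and 0.19), with adjusted p-values of 0.614, 0.619 and 0.555. Col6a5, an alternative to the alpha 3 chain, stood at 59.0, 53.7, 39.9 and 44.8 FPKM against 69.0, 42.0, 37.8 and 23.4 (0.28, SE 0.29, adjusted p = 0.698).

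Col14a1 and Col12a1 belong to the FACIT group, collagens that sit on the surface of fibrils. Col14a1 stood at 17.2, 45.8, 35.6 and 32.5 FPKM in tubastatin and 22.7, 21.1, 23.0 and 21.1 in vehicle (log2 fold change 0.48, SE 0.25, adjusted p = 0.472). Col12a1 stood at 1.48, 6.01, 4.21 and 5.26 FPKM against 2.58, 3.03, 2.36 and 1.47 (0.56, SE 0.32, adjusted p = 0.493). Both showed the low first replicate of the fibrillar genes. Col6a6, another alternative type VI chain, stood at 4.80 ± 1.19 FPKM against 6.12 ± 1.40, Col28a1 at 1.07 ± 0.160 against 1.55 ± 0.632 and Col23a1, a membrane-spanning collagen, at 1.22 ± 0.167 against 1.46 ± 0.349 (SD, n = 4 each). These 3 were the other collagens with a negative fitted value. Col16a1 stood at 18.2 ± 4.90 against 15.3 ± 2.39, Col8a1 at 7.67 ± 3.77 against 5.25 ± 0.858 and Col8a2, its partner in hexagonal networks, at 5.08 ± 2.54 against 3.70 ± 1.80 FPKM.

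**Figure D3:**
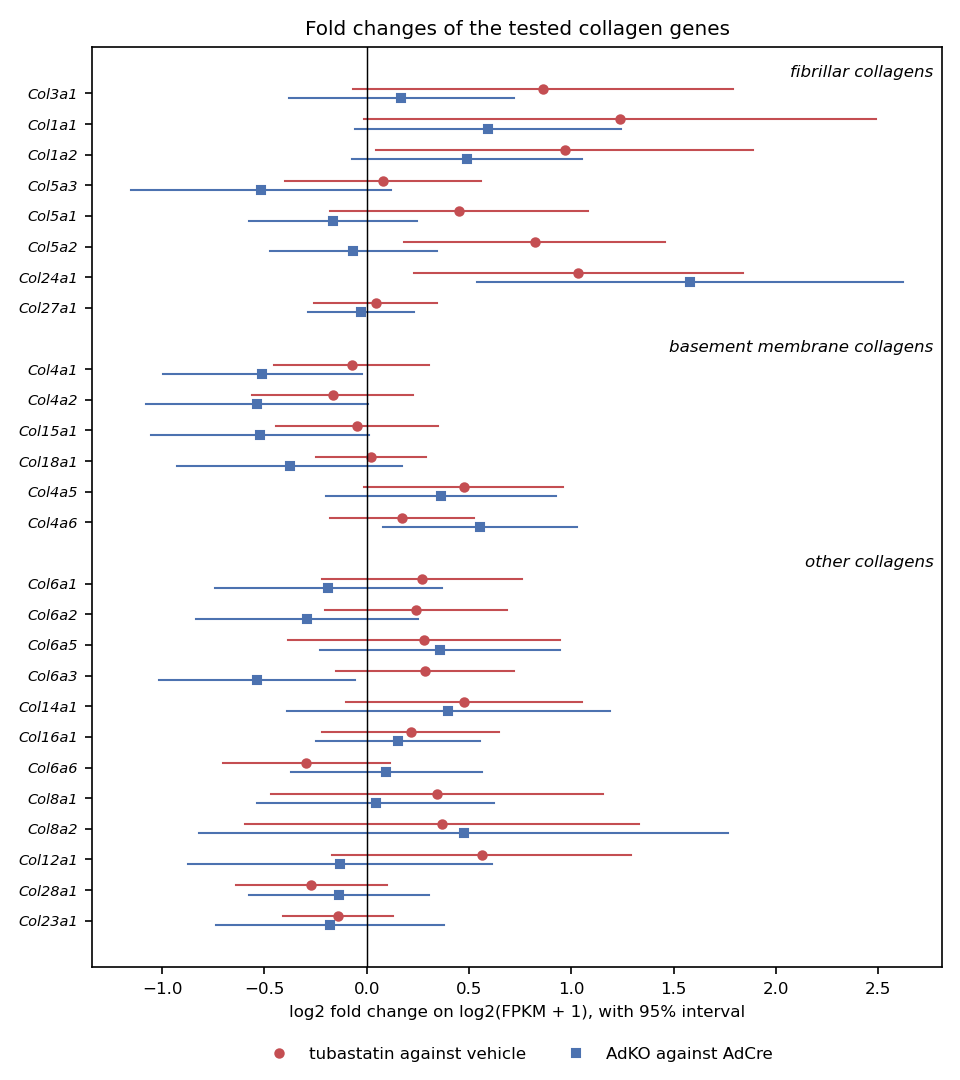
Fitted log2 fold changes of the 26 tested collagens on log2(FPKM + 1), with 95% intervals, for tubastatin against vehicle (circles) and AdKO against AdCre (squares), ordered by class and mean level. All 8 fibrillar circles lie above 0 while 4 of 8 fibrillar squares do, and 0 of the 26 genes is called in either comparison.

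The makeup of the collagen RNA followed the same libraries. Fibrillar genes took 39.5, 66.7, 63.7 and 54.3% of all collagen FPKM in tubastatin replicates 1 to 4, against 46.2, 36.3, 47.2 and 37.7% in vehicle. The summed FPKM of the fibrillar genes was 482, 1990, 1699 and 1220 in tubastatin and 761, 635, 675 and 461 in vehicle. That of the basement membrane genes was 401 to 483 in tubastatin and 384 to 657 in vehicle. The sums are dominated by the most abundant genes and were not tested.

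**Figure D4:**
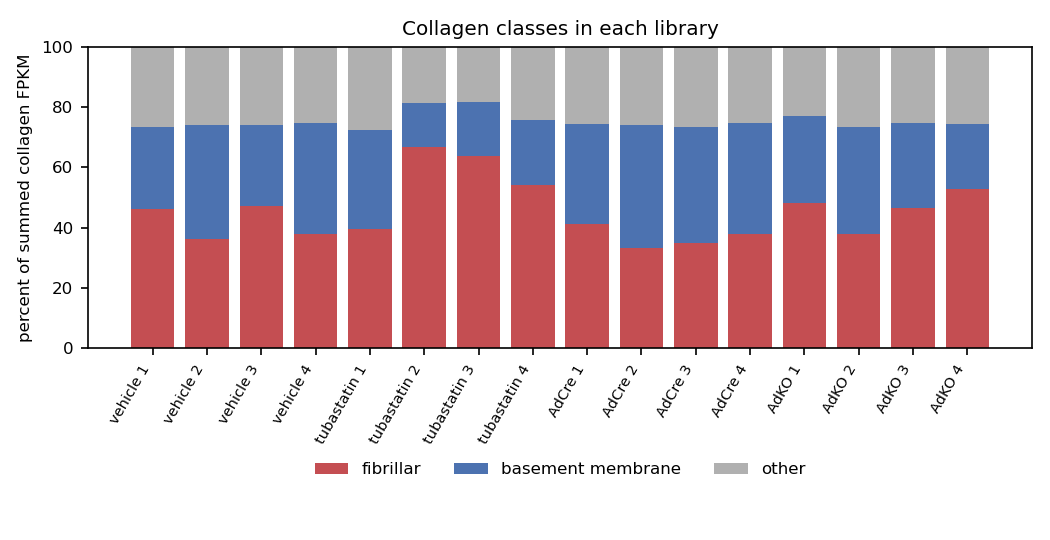
Share of summed collagen FPKM taken by fibrillar, basement membrane and other collagens in each of the 16 libraries, as stacked bars that add to 100 percent. The fibrillar share is 54.3 to 66.7% in tubastatin replicates 2, 3 and 4 and 33.3 to 52.8% in the other libraries.

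Chains of the same molecule or fibril were also compared as ratios within a library, which do not depend on how that library was scaled. Each was tested over all 70 ways to relabel the libraries (exact permutation, two-sided), where the smallest possible p is 0.0286, with adjustment over the 10 tests. The ratio of Col5a1 to Col5a2 was 1.10, 1.17, 1.08 and 1.08 in tubastatin and 1.24, 1.60, 1.31 and 1.65 in vehicle. The groups did not overlap, and replicate 1 of tubastatin lay with its group. The means were 1.11 ± 0.0440 and 1.45 ± 0.204 (SD, n = 4 each, exact p = 0.0286, adjusted p = 0.190), a log2 difference of -0.38. Without tubastatin replicate 1 the difference was -0.38 as well. The ratio of Col4a1 to Col4a2 was 1.28 ± 0.0651 against 1.20 ± 0.0184 (exact p = 0.0571, adjusted p = 0.190). Col1a1 to Col1a2 was 1.60 ± 0.344 against 1.30 ± 0.0792, Col1a1 to Col3a1 0.870 ± 0.268 against 0.648 ± 0.0424 and Col6a1 to Col6a2 2.10 ± 0.122 against 2.06 ± 0.0815, with exact p-values of 0.171, 0.143 and 0.571. None of the 10 ratios passed when adjusted.

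**Figure D5:**
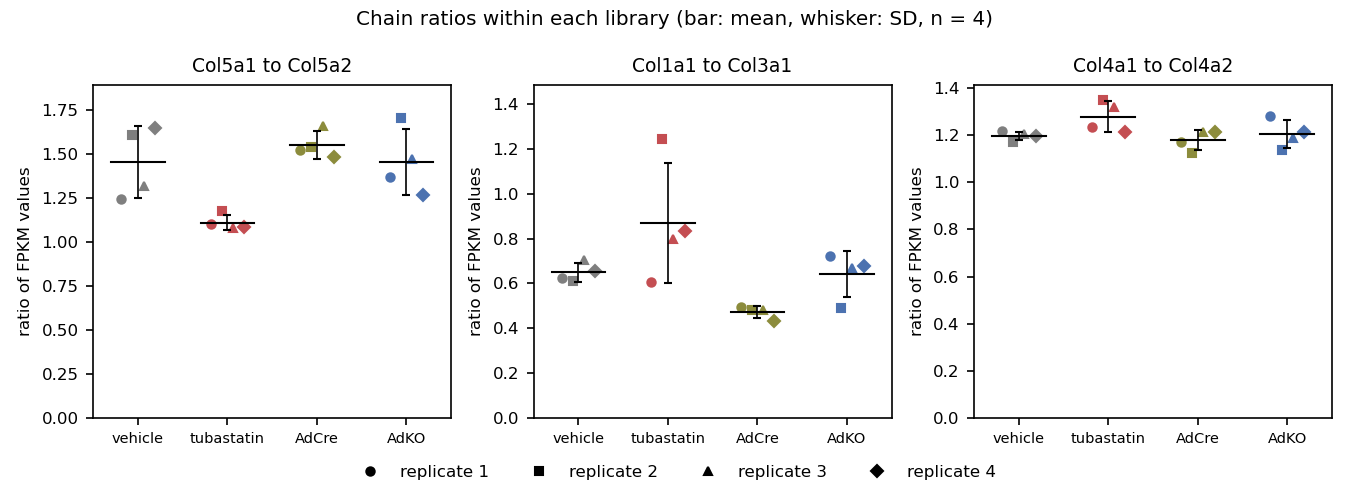
Ratio of the FPKM values of 2 chains within each library for 3 pairs, by group, with a marker per replicate, the mean as a bar and the SD as a whisker (n = 4). The ratio of Col5a1 to Col5a2 is 1.08 to 1.17 in tubastatin and 1.24 to 1.65 in vehicle, and that of Col1a1 to Col3a1 is 0.430 to 0.493 in AdCre and 0.490 to 0.723 in AdKO.

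Before secretion, procollagen is hydroxylated and folded in the endoplasmic reticulum, then exported, trimmed and crosslinked. Of 17 tested genes of hydroxylation, glycosylation and folding, 0 were called with tubastatin, 15 had a positive fitted value (median 0.21), against 45.4% of all genes, and 3 had an unadjusted p under 0.05, all positive, a share near the 12.0% of all genes. P3h4, a partner of the lysyl and prolyl hydroxylases, stood at 9.62, 13.8, 13.0 and 12.5 FPKM against 9.61, 9.39, 8.57 and 9.45 in vehicle, with no overlap (fitted value 0.36, SE 0.10, adjusted p = 0.316), as 3.53% of all genes were higher without overlap. Plod2, the lysyl hydroxylase of the telopeptides, stood at 6.33, 12.9, 12.1 and 11.9 FPKM against 7.46, 5.84, 6.51 and 4.91 (0.69, SE 0.21, adjusted p = 0.337). Crtap, a subunit of the prolyl 3-hydroxylase complex, stood at 54.6, 67.1, 67.5 and 58.9 FPKM against 54.7, 54.8, 50.2 and 56.6. P4ha2, a catalytic subunit of prolyl 4-hydroxylase, stood at 3.49, 6.51, 6.02 and 5.75 FPKM against 4.03, 4.12, 2.99 and 4.40. Replicate 1 lay inside the vehicle range for Plod2, Crtap and P4ha2, and barely above it for P3h4.

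Of 17 tested genes of export, processing and crosslinking, 0 were called, 14 had a positive fitted value, against 45.4% of all genes, and 3 positive and 2 negative values had an unadjusted p under 0.05, against 12.0% of all genes. Bmp1, the procollagen C-proteinase, stood at 19.2, 32.9, 25.5 and 27.7 FPKM in tubastatin and 20.1, 17.4, 16.9 and 15.3 in vehicle (0.55, SE 0.15, adjusted p = 0.310). Creb3l1, a factor of the endoplasmic reticulum that activates type I collagen genes in bone, stood at 8.14, 18.9, 17.6 and 12.8 FPKM against 8.71, 7.61, 6.98 and 7.49 (0.76, SE 0.23, adjusted p = 0.330). Pcolce2, an enhancer of the C-proteinase, stood at 10.7, 8.05, 7.18 and 10.1 FPKM against 10.1, 16.9, 12.6 and 12.6 (-0.49, SE 0.16, adjusted p = 0.354). Mia2, of the machinery that loads bulky cargo for export, stood at 7.93 to 9.15 FPKM against 9.28 to 9.85, without overlap. Of all genes, 3.62% were lower without overlap. Loxl2, a lysyl oxidase, had another of the 3 positive values, at 7.42, 20.8, 20.95 and 17.6 FPKM against 11.1, 8.72, 8.50 and 8.85.

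Of 14 tested genes of TGF-beta control, a pathway that raises fibrillar collagen transcription, 0 were called. A positive fitted value was found for 8 of them, against 45.4% of all genes. The 2 with an unadjusted p under 0.05, a share near the 12.0% of all genes, were negative and free of overlap, which 3.62% of all genes were in that direction. Tgfbr3, the betaglycan coreceptor, stood at 21.4 to 23.7 FPKM in tubastatin and 25.9 to 31.1 in vehicle (-0.33, SE 0.07, adjusted p = 0.266), and Ltbp1, which binds latent TGF-beta to the matrix, at 5.52 to 6.50 against 6.66 to 7.24 (-0.19, SE 0.06, adjusted p = 0.336). Of 7 tested collagen receptors 0 had an unadjusted p under 0.05 and 1 had a positive fitted value, against 45.4% of all genes. Of 9 laminin, nidogen and perlecan genes, the partners of type IV collagen, 0 had an unadjusted p under 0.05. A positive fitted value was found for 5, against the same 45.4%.

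Cell type markers were read beside the collagens. A marker level is the mean over the tested markers of log2(FPKM + 1), each taken relative to its own 16-library mean. The fibroblast and progenitor level (10 of 10 markers tested) was -0.02, 0.28, 0.06 and 0.20 in tubastatin and 0.09, -0.04, 0.06 and -0.19 in vehicle, with a summed level of 806 to 1016 FPKM against 723 to 925. Pdgfra, a receptor that marks these cells, stood at 14.3 to 15.0 FPKM in tubastatin and 13.7 to 14.8 in vehicle, and Dcn at 421, 343, 265 and 394 against 332 to 398. The fibroblast and progenitor level was lowest in replicate 1 among the tubastatin libraries, as were all 8 tested fibrillar collagens. For the macrophage, mesothelial, endothelial, and mural and smooth muscle levels, all 4 tubastatin libraries lay inside the vehicle range. For T and B lymphocyte markers replicate 1 lay inside it and the other tubastatin libraries below. That level was 0.91, 0.41, -0.34 and 0.18 in tubastatin and 0.46 to 1.53 in vehicle. Of these 7 markers 0 were fitted as positive, against 45.4% of all genes. An unadjusted p under 0.05 was found for 2, against 12.0% of all genes, and 1 was lower without overlap, against 3.62%. The adipocyte level was negative in all 4 tubastatin libraries (-0.45 to -0.30) and -0.42 to 0.28 in vehicle, with 0 of 8 markers fitted as positive, against 45.4% of all genes, and 0 under an unadjusted p of 0.05. Their part in the collagen values was not tested.

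The second comparison asks how the pad differs when Hdac6 is deleted in adipocytes. Of the 26 collagens, 0 were called by limma, where percent called was 0.0 over all genes, and 4 (Col24a1, Col4a6, Col6a3 and Col4a1) had an unadjusted p under 0.05 against 10.9% of all genes. By limma voom 0 were called and 4 were under 0.05, where 1328 of all 12622 genes were. The fitted log2 fold change was positive for 12 of 26 collagens, against 50.9% of all genes, with a median of -0.05 against 0.00 for all genes. It was positive for 4 of 8 fibrillar (median 0.07), 2 of 6 basement membrane (median -0.44) and 6 of 12 other collagens (median -0.04). Of the 26 genes, 1 was free of overlap and higher, against 2.78% of all genes, and 0 were free of overlap and lower, against 3.70%. AdKO replicate 1 was the lowest of the 8 libraries for 14 collagens and AdKO replicate 3 the highest for 15.

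The gene without overlap was Col24a1. It stood at 2.05, 0.34, 6.10 and 3.89 FPKM in AdKO and 0.13, 0.31, 0.06 and 0.13 in AdCre. The closest values were those of AdKO replicate 2 and AdCre replicate 2, from 54 and 50 recovered reads. The other AdCre libraries held 11 to 21 reads. The mean was 3.10 ± 2.47 FPKM against 0.158 ± 0.103 (SD, n = 4 each), a fitted log2 fold change of 1.58 (SE 0.45, adjusted p = 0.327). Left out in turn, the 8 libraries gave 1.23 to 2.03, with adjusted p-values of 0.109 to 0.699. Col24a1 reached the mean of 1 FPKM needed for the test only through the AdKO and tubastatin libraries, where it was high. The filter and the lack of overlap are therefore not independent, and the lack of overlap is no support for a difference.

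Col1a1 stood at 194, 142, 344 and 306 FPKM in AdKO and 192, 147, 125 and 157 in AdCre. Replicates 3 and 4 of AdKO were well above AdCre, replicate 1 barely, and replicate 2 inside its range. The log2 fold change was 0.59 (SE 0.28, adjusted p = 0.488). Col1a2 stood at 115, 114, 220 and 203 FPKM against 125, 110, 89.6 and 122 (0.49, SE 0.24, adjusted p = 0.503). Col3a1 stood at 269, 289, 513 and 451 FPKM against 390, 306, 260 and 365 (0.17, SE 0.24, adjusted p = 0.795), and this value turned to -0.04 without AdCre replicates 2 and 3, the libraries with epididymal epithelium genes. Replicates 3 and 4 of AdKO were the highest for all 3 genes.

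The type V chains had negative fitted values. Col5a3 stood at 46.0, 84.7, 113 and 50.2 FPKM in AdKO and 82.6, 104, 102 and 109 in AdCre (-0.52, SE 0.28, adjusted p = 0.525), and AdKO replicates 1 and 4 were the low ones. Col5a1 stood at 56.9 ± 14.7 against 62.5 ± 5.26 FPKM (SD, n = 4 each). Col5a2 stood at 28.7, 34.8, 51.0 and 43.0 FPKM against 40.0, 44.2, 33.7 and 44.2 (-0.07, SE 0.18, adjusted p = 0.899), a sign that turned without AdKO replicate 1. Col27a1 stood at 1.48 ± 0.296 against 1.52 ± 0.208 FPKM.

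Among basement membrane chains, Col4a1 stood at 176, 259, 320 and 181 FPKM in AdKO and 290, 389, 284 and 342 in AdCre. Col4a2 stood at 138, 228, 269 and 149 FPKM against 248, 346, 234 and 282. In both, AdKO replicates 1 and 4 were far below AdCre, replicate 2 somewhat below and replicate 3 inside its range. The log2 fold changes were -0.51 (SE 0.21, adjusted p = 0.448) and -0.54 (SE 0.24, adjusted p = 0.461). Col15a1 stood at 70.3, 126, 149 and 81.8 FPKM against 127, 158, 153 and 152 (-0.52, SE 0.23, adjusted p = 0.466), and Col18a1 at 44.1 ± 15.9 against 54.9 ± 4.50. The adipocyte level moved with them, at -0.24, 0.46, 0.53 and -0.48 in AdKO replicates 1 to 4 and 0.26 to 0.61 in AdCre. The summed adipocyte markers were 2969 to 6056 FPKM against 5063 to 6362, with 0 of 8 fitted as positive against 50.9% of all genes. The mural and smooth muscle level was -0.50, 0.31, 0.23 and 0.04 in AdKO and -0.04 to 0.52 in AdCre. Of its 6 tested markers 1 was fitted as positive. An unadjusted p under 0.05 was found for 1 (10.9% of all genes), and 1 was lower without overlap (3.70%). The endothelial level was 0.12, 0.27, 0.32 and -0.08 against -0.01 to 0.58, with 1 of 7 fitted as positive. The part of these markers in the result was not tested.

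The other type IV trimer lay on the other side. Col4a6 stood at 1.82, 2.63, 3.76 and 2.52 FPKM in AdKO and 0.81, 1.67, 1.39 and 2.18 in AdCre (0.55, SE 0.21, adjusted p = 0.419). Col4a5 stood at 5.03, 7.36, 10.9 and 8.51 FPKM against 4.02, 5.80, 5.35 and 8.57 (0.36, SE 0.24, adjusted p = 0.593). Both overlapped between the groups. Mesothelial markers, of the sheet of cells that covers the pad, were read beside them: 8 of 8 were fitted as positive, against 50.9% of all genes, 6 had an unadjusted p under 0.05, against 10.9%, and 4 were higher without overlap, against 2.78%. Their level was -0.16, 0.59, 0.40 and 0.68 in AdKO and -0.90 to -0.10 in AdCre, and the sum was 91.2 to 185 FPKM against 51.8 to 102. Other lists were mostly positive too: 8 of 8 macrophage, 7 of 7 T and B lymphocyte and 9 of 10 fibroblast and progenitor markers. Of these, 0, 1 and 0 had an unadjusted p under 0.05. The part of these markers in the collagen values was not tested.

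Of type VI, Col6a3 stood at 23.7, 39.8, 50.1 and 39.0 FPKM in AdKO and 52.2, 61.3, 47.0 and 56.3 in AdCre (-0.54, SE 0.21, adjusted p = 0.432). Only AdKO replicate 3 reached the AdCre range. Col6a1 stood at 144, 242, 361 and 241 FPKM against 272, 279, 260 and 260 (-0.19, SE 0.24, adjusted p = 0.771), and Col6a2 at 75.5, 117, 182 and 115 against 147, 160, 126 and 141 (-0.29, SE 0.24, adjusted p = 0.649). In all 3 genes AdKO replicate 1 was the lowest of the 8 libraries. Without it the value of Col6a3 was -0.33, and that of Col6a1 turned to 0.05. Col6a5 stood at 51.5, 50.6, 47.4 and 71.0 FPKM against 33.2, 53.0, 28.7 and 62.6 (0.36, SE 0.25, adjusted p = 0.610).

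Exactly 3 of the 4 AdKO libraries lay below every AdCre library for 6 collagens, against 8.33% of all genes: Col4a1, Col4a2, Col15a1, Col6a1, Col6a2 and Col6a3. AdKO replicate 3 was the exception in all 6, a pattern found in 3.44% of all genes. Exactly 3 lay above every AdCre library for 4 collagens, against 7.94% of all genes: Col1a1, Col4a6, Col14a1 and Col16a1. Replicate 1 was the exception in 3 of these 4 and replicate 2 in Col1a1.

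Col14a1 stood at 9.68, 19.5, 33.3 and 27.8 FPKM in AdKO and 16.2, 11.2, 16.8 and 18.0 in AdCre (0.40, SE 0.34, adjusted p = 0.663). Col12a1 stood at 0.81, 2.68, 4.18 and 3.44 FPKM against 2.47, 4.04, 2.01 and 3.17 (-0.13, SE 0.32, adjusted p = 0.886). Col16a1 stood at 17.5 ± 4.29 against 15.2 ± 1.17, Col6a6 at 7.51 ± 1.57 against 7.08 ± 2.10, Col8a1 at 3.88 ± 1.30 against 3.73 ± 1.33 and Col8a2 at 3.29 ± 2.99 against 1.85 ± 1.76 FPKM (SD, n = 4 each). Col28a1 stood at 2.14 ± 0.356 against 2.53 ± 0.947 and Col23a1 at 1.27 ± 0.448 against 1.62 ± 0.747 FPKM. All of these overlapped between the groups.

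Fibrillar genes took 48.1, 37.8, 46.4 and 52.8% of collagen FPKM in AdKO replicates 1 to 4 and 41.2, 33.3, 34.8 and 37.8% in AdCre. Basement membrane genes took 21.7 to 35.7% in AdKO and 33.2 to 40.9% in AdCre. The ratio of Col1a1 to Col3a1 was 0.723, 0.490, 0.669 and 0.679 in AdKO and 0.430 to 0.493 in AdCre, with replicate 2 of AdKO inside the AdCre range (exact p = 0.0571, adjusted p = 0.190). Col5a1 to Col5a2 was 1.45 ± 0.186 against 1.55 ± 0.0772, Col1a1 to Col1a2 1.50 ± 0.189 against 1.39 ± 0.110, Col4a1 to Col4a2 1.20 ± 0.0603 against 1.18 ± 0.0419 and Col6a1 to Col6a2 2.02 ± 0.0842 against 1.88 ± 0.132, with exact p-values of 0.314, 0.371, 0.514 and 0.114.

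Of the 17 hydroxylation and folding genes 0 were called in AdKO, 11 had a positive fitted value, against 50.9% of all genes, and 2 positive and 2 negative values had an unadjusted p under 0.05, against 10.9%. P3h4 had no overlap, as 2.78% of all genes had in that direction, at 10.1, 13.1, 13.2 and 16.3 FPKM against 8.33, 6.57, 6.44 and 8.99 in AdCre (0.72, SE 0.15, adjusted p = 0.240). Plod2 stood at 7.59, 5.73, 7.75 and 10.2 FPKM against 6.45, 5.46, 4.32 and 5.57 (0.44, SE 0.16, adjusted p = 0.419). Serpinh1, the collagen chaperone HSP47, stood at 240, 282, 359 and 296 FPKM against 360, 365, 340 and 391 (-0.32, SE 0.13, adjusted p = 0.447), and Tmem38b, a cation channel of the endoplasmic reticulum, at 13.1, 9.32, 9.57 and 9.90 against 13.9, 14.0, 14.0 and 12.9 (-0.37, SE 0.10, adjusted p = 0.326).

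Of the export and processing genes 0 of 17 were called, and 1 had an unadjusted p under 0.05, against 10.9% of all genes. This was Pcolce2, at 8.64, 17.5, 18.4 and 11.3 FPKM in AdKO and 18.7, 24.1, 15.6 and 23.6 in AdCre (-0.56, SE 0.24, adjusted p = 0.456). The basement membrane partners had 0 of 9 fitted as positive (median -0.25), against 50.9% of all genes, and 0 under 0.05. Mrc2, the collagen uptake receptor Endo180, was the only one of 7 receptors under 0.05, at 27.1, 33.1, 37.1 and 36.6 FPKM against 42.7, 51.3, 35.2 and 43.1 (-0.35, SE 0.14, adjusted p = 0.437). Of the TGF-beta genes Tgfb3, a ligand, was the only one of 14, at 7.87, 11.7, 17.6 and 13.8 FPKM against 7.66 to 8.87 (0.53, SE 0.20, adjusted p = 0.419). The fibroblast and progenitor level was -0.32, 0.02, 0.13 and 0.34 in AdKO replicates 1 to 4 and -0.22 to -0.08 in AdCre, with a summed level of 701 to 1106 FPKM against 695 to 806.

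The effects of drug and knockout were set against each other in a fit over all 16 libraries. Of 26 collagens 0 were called by limma, with percent called at 0.0 over all genes, and 2 had an unadjusted p under 0.05 against 9.03% of all genes. By limma voom 0 were called and 2 were under 0.05, where 1098 of all 12622 genes were. Those 2 in the main test were Col6a3 (difference of log2 fold changes 0.82, SE 0.30, adjusted p = 0.437) and Col5a2 (0.89, SE 0.35, adjusted p = 0.476). The difference, tubastatin effect minus AdKO effect, was positive for 20 of 26 collagens against 49.4% of all genes, with a median of 0.38. It was positive for 7 of 8 fibrillar (median 0.61), 5 of 6 basement membrane (median 0.38) and 8 of 12 other collagens (median 0.07). The median log2 fold changes of the fibrillar class were 0.84 with tubastatin and 0.07 in AdKO. Those of the basement membrane class were -0.01 and -0.44. Col24a1 had a difference of -0.55 (SE 0.61, 95% interval -1.86 to 0.76). The cohorts also differ in labelled age and genotype, which cannot be told apart from the difference between drug and knockout in this contrast.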

How the data were processed

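RNA of epididymal fat was measured in 16 libraries. The authors deposited FPKM values per Ensembl gene; aligner, counter, kit and build were not given in the sources used here, and 0 columns lacked a sample. Per the labels' protocols, RNA was extracted with Trizol, DNase treated and cleaned on columns. Symbols matched 54409 of 54532 IDs. Reads were recovered from FPKM with exon-union lengths of GENCODE M21 (GRCm38), whose coordinates are printed: 96.3 to 96.5% of values per library were whole within 0.01, and 12622 tested genes (95.1%) were whole in all libraries.

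The 13271 genes averaging 1 FPKM or more entered limma-trend (limma 3.58.1 in R 4.3.3) as log2(FPKM + 1), and adjusted p-values in the text are limma's, by Benjamini-Hochberg over all of them, called under 0.05. Both comparisons were fitted on 8 libraries of their own and the contrast between the effects on 16. Fold changes on this scale are understated for low genes. Chain ratios used exact permutation tests in Python 3.11.15. The gene test was also run on simulated data in which genes were drawn independently, unlike collagens that vary together by library. Its outcome is not reported here, and it lends the results no weight. Alternatives were pseudocounts of 0.1 and 0.5, no filter, a mean of at least 5 FPKM, median-of-ratios factors, TPM, a shared spread, limma voom on recovered reads, a replicate block, each library left out, and AdCre replicates 2 and 3 left out together.

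Named in full were the 8 major chains of types I, III, IV and VI and, per class and comparison, the 2 collagens with the smallest p. Of each pathway list up to 4 genes were named by p. Full values of Col5a1, Col5a3, Col15a1, P4ha2 and Loxl2, and the count of genes with 3 of 4 libraries apart, were added after values were seen. Members and lists were chosen with earlier results of these data known.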

Additional observations from a re-analysis of the deposited data

Results flagged for a closer look

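Of 104 groups of 4 libraries (26 collagens in 4 groups), 2 held a library whose gap to its nearest neighbour exceeded 0.829 of the group's range, where chance gives about 1 in 20. Col16a1 stood at 18.9 FPKM in vehicle replicate 2 and at 13.9 to 14.4 in the other vehicle libraries. Col27a1 stood at 0.917 FPKM in tubastatin replicate 1 and at 1.57 to 1.62 in the other tubastatin libraries. For 0 of 26 collagens was a difference between the drug and knockout effects called.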

How the results depend on the processing

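No collagen was called in any comparison under any alternative run. Among all genes the count called in the tubastatin comparison was 8 with 1 shared spread, 3 with no filter, 1 with TPM and 0 in the main test. It was 2 without tubastatin replicate 1 and 1 without tubastatin replicate 2. For AdKO it was 43 with 1 shared spread, 2 with no filter, 1 without AdKO replicate 2, 1 without AdKO replicate 3 and 0 in the main test. For the difference of the effects it was 1 with no filter, 4 without tubastatin replicate 1, 5 without AdKO replicate 2 and 0 in the main test. The causes were not tested. TPM moved the median of all genes in the tubastatin comparison from -0.01 to 0.06, and Col4a1 turned to 0.0039 and Col15a1 to 0.0309 there. With AdCre replicates 2 and 3 left out together Col3a1 turned to -0.041. Leaving out each library in turn, tubastatin gave -0.188 to 0.0875 for Col4a1 and -0.284 to 0.0039 for Col4a2, and AdKO gave -0.394 to 0.0455 for Col6a1, -0.198 to 0.0721 for Col5a2 and -0.318 to 0.189 for Col12a1. The log2 ratio of Col5a1 to Col5a2 with tubastatin ranged from -0.452 to -0.316, always with exact p = 0.0571, the smallest that 3 against 4 libraries allow. The ratio of Col6a1 to Col6a2 with tubastatin ranged from -0.00051 to 0.0649, and that of Col4a1 to Col4a2 in AdKO from -0.00196 to 0.0557. The median over the 26 collagens ranged from 0.145 to 0.434 with tubastatin and from -0.103 to 0.102 in AdKO, where the highest value came without replicate 1. Same-numbered libraries had correlated deviations of r = -0.104 to 0.0178 in the tubastatin comparison. In AdKO against AdCre they were mixed, at 0.330 and 0.206 for numbers 1 and 3, each of which correlated best with its own number, and -0.232 and -0.216 for numbers 2 and 4. Not every pair was above 0.1 in either comparison, so the libraries were taken to share only a number. With the replicate number as a block, 2 and 6 collagens had an unadjusted p under 0.05 where the main test had 3 and 4. Of all 13271 genes, 1494 and 1564 did so with the block. The Col5a1 to Col5a2 difference of -0.3802 then had a sign-flip p of 0.125, the smallest that 4 pairs allow. Col2a1, Col9a1 and the other collagens with few reads are below what this depth can compare.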

Other observations

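Col4a4, Col4a3 and Col13a1 stood out in AdCre replicate 3, the library with Epcam at 22.8 FPKM. Col4a4 stood there at 2.14 FPKM and at 0.114 to 0.393 in the other 15 libraries, Col4a3 at 0.837 against 0.0258 to 0.197 and the membrane-spanning Col13a1 at 0.360 against 0 to 0.158. Col4a3 and Col4a4 are chains of the type IV trimer known from kidney and lung. None of the 3 reached the mean of 1 FPKM needed for the test.

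Of the collagens below the limit, Col7a1, the anchoring fibril collagen, stood at 0.243, 0.658, 0.558 and 0.487 FPKM in tubastatin replicates 1 to 4 and 0.175 to 0.399 in vehicle, with replicate 1 again inside the vehicle range. Col20a1 stood at 1.20 ± 0.434 FPKM in tubastatin, 1.04 ± 0.181 in vehicle, 0.677 ± 0.150 in AdCre and 0.978 ± 0.315 in AdKO (SD, n = 4 each). Col11a2 stood at 0.469 to 0.804 FPKM in tubastatin and 0.374 to 0.871 in vehicle.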
